A study of Mus musculus with 12 samples.

Results

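The 10 genes described here are messenger RNA genes of the mouse mitochondrial chromosome, matched by symbol to the gene identifiers of the count files, which list 43629 genes in all, 37 of them mitochondrial and 13 of these protein-coding. They encode 5 subunits of complex I of the respiratory chain (mt-Nd1, mt-Nd2, mt-Nd4, mt-Nd5 and mt-Nd6), the cytochrome b subunit of complex III (mt-Cytb), 3 subunits of complex IV, cytochrome c oxidase (mt-Co1, mt-Co2 and mt-Co3), and a subunit of complex V, the ATP synthase (mt-Atp6). They were measured by RNA sequencing of total RNA in 12 libraries of the C57BL/6 mouse strain, 3 in each of 4 groups. AGHMT stands for mouse embryonic fibroblasts 3 weeks after delivery of Akt with the cardiac transcription factors Gata4, Hand2, Mef2c and Tbx5. Akt is named Akt1 in the title of the series. GHMT stands for the same fibroblasts 3 weeks after these factors alone, and E for embryonic fibroblasts 3 weeks after an empty vector. CM stands for ventricular cardiomyocytes isolated from adult mice. AGHMT and GHMT cells had been sorted on green fluorescent protein driven by the promoter of αMHC, the adult cardiac myosin gene Myh6, and no sort is named for CM or E, so that in every comparison of a sorted group with E the sort and the factors cannot be told apart. The labels do not say that replicates were separate cultures or animals, and each p-value therefore measures only the spread among these libraries, which may be technical.

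Mitochondrial DNA is transcribed from both of its strands into long precursor RNAs, and transfer RNAs that lie between most of the messages are cut out to release them. Most of the messages come from transcripts begun at the heavy-strand promoter, while mt-Nd6 is the message on the opposite strand, read from the light-strand promoter and facing the 3′ end of mt-Nd5. Cardiac muscle is rich in mitochondria, and its respiratory complexes combine these core subunits with many subunits encoded in the nucleus.

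The sequences of the members set 2 limits on their counts. The first is the overlap of mt-Nd5 and mt-Nd6, whose 3′ ends share 14 bases on opposite strands of the mitochondrial chromosome (GRCm38, transcripts of GENCODE M21). The last 60 bases of mt-Nd5 (chrM:13506-13565, plus strand) and the last 150 of mt-Nd6 (chrM:13552-13701, minus strand) are given with the shared part in capitals.

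mt-Nd5: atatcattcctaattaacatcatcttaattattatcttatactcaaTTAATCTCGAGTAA

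mt-Nd6: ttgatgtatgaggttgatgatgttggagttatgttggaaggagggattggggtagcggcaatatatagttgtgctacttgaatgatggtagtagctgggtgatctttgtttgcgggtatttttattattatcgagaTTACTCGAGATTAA

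The message of mt-Nd6 is 28.1% G and 43.7% T but 5.97% C, whereas the other 9 members hold 8.0% to 16.1% G, 27.4% to 31.3% T and 23.8% to 27.8% C. The libraries were made with a strand-preserving kit, but the counts behaved as if strand had not been used in counting. Of 285 genes whose exons lie wholly inside exons of a gene on the other strand, 263 had no read in any of the 12 libraries, among them Lrrc14b with 2755 exon bases inside Ccdc127, a gene with 15750 reads. A count for mt-Nd6 therefore cannot be told apart from reads of the opposite strand, including any extension of mt-Nd5 past its annotated end. The same limit holds for the counts of the other members and of the mitochondrial transfer and ribosomal RNA genes. Below, the strand named for a gene is its annotated strand, and its reads may come from either strand.

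The second limit is a stretch of mitochondrial DNA copied into nuclear chromosome 1 (chr1:24611535-24616197), which the annotation lists as a row of pseudogenes on the minus strand. Reads that matched several places were not counted, and a read from a stretch that is identical in both places matches both. The start of mt-Co3 (chrM:8607-8666, plus strand) and of its copy Gm28437 (chr1:24613912-24613971, minus strand) are the same letter for letter, and aligned bases are in capitals.

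mt-Co3: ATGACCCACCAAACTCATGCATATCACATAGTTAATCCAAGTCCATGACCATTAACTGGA

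Gm28437: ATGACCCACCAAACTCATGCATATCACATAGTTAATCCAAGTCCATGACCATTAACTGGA

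The copy holds 783 of the 784 bases of mt-Co3 at 100% identity. For mt-Co2 the copy Gm28661 holds 681 of 684 bases and for mt-Atp6 the copy Gm10925 holds 678 of 681, both at 100% identity. The 12 libraries together held 368 reads of mt-Co3, 316 of mt-Co2 and 199 of mt-Atp6, against 3222040 to 9713276 reads for each of the other 7 members. mt-Nd4 and mt-Co1 lie in the copied stretch only in part. The boundary in mt-Nd4 (chrM:11013-11072, plus strand, against Gm28439 at chr1:24611535-24611564, minus strand) follows base 876 of 1378.

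mt-Nd4: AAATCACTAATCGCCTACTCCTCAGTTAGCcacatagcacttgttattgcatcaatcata

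Gm28439: AAATCACTAATCGCCTACTCCTCAGTTAGC

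In mt-Co1 the copy Gm29216 covers bases 1063 to 1545, 483 bases with 1 mismatch (99.8% identity). The plot of reads against the copied share shows this division. Levels between members are therefore compared below as reads per kilobase outside copies of at least 99% identity, and mt-Co2, mt-Co3 and mt-Atp6 are left out of such comparisons. Of the messenger RNA genes outside the 10, mt-Nd3 and mt-Nd4l lie within such copies over 99.1% and 98.99% of their length and held 12 and 10 reads. mt-Atp8 had no copy of at least 100 bases among the annotated transcripts and held 2 reads.

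**Figure D1:**
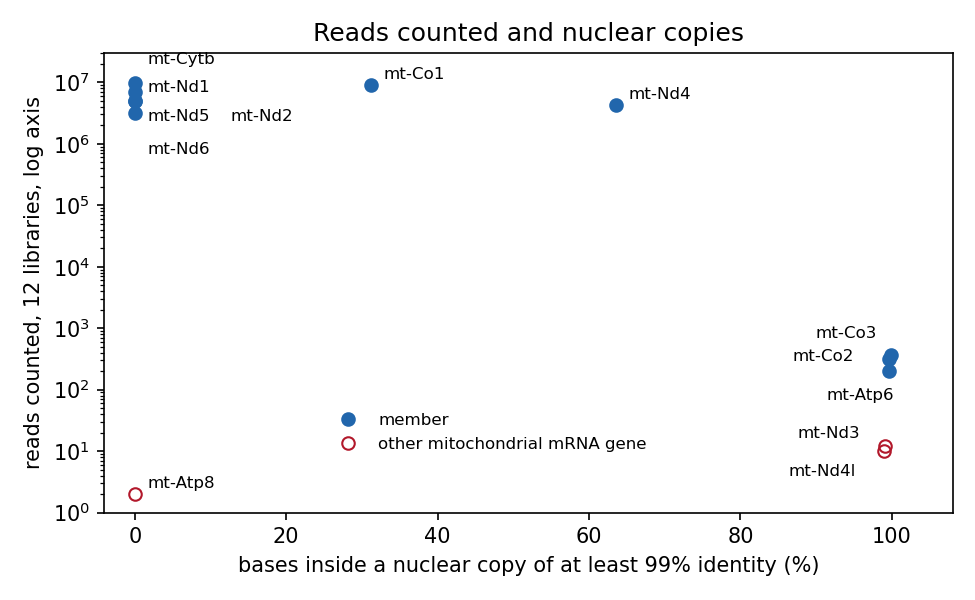
Reads counted over the 12 libraries (y axis, log scale) against the percentage of each gene's bases inside a nuclear copy of at least 99% identity (x axis), for the 10 members (filled points) and the other 3 mitochondrial messenger RNA genes (open points). The 7 members with at most 63.6% of their bases in a copy held 3222040 to 9713276 reads, and the 3 members with at least 99.6% held 199 to 368.

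AGHMT libraries held 14386407 to 18493989 gene reads each, GHMT libraries 1872558 to 2200815, CM libraries 5120230 to 15952646 and E libraries 15971154 to 33552138, so the GHMT libraries were the shallowest, and replicates differed beyond counting error (chi-square per degree of freedom over genes of 13.4 to 272). Akt1 counts went against the AGHMT label: Akt1 stood at 7.30 to 19.6 CPM in AGHMT, 1.31 to 13.7 in GHMT, 18.1 to 104 in CM and 21 to 104 in E (CPM, library-scaled counts on the TMM scale, edgeR's trimmed mean of M values). The first group is therefore called AGHMT-labelled. Of the factors, Hand2 stood at 5.69 to 6.39 CPM in AGHMT-labelled libraries, 1.31 to 9.38 in GHMT and 1.10 to 3.98 in E. GHMT thus overlapped E in Hand2. Gata4, Mef2c and Tbx5 lay above E in every library of both groups. The 8 cardiomyocyte markers summed to 4110 to 4548 CPM in AGHMT-labelled libraries, 728 to 1262 in GHMT, 30042 to 58815 in CM and 8.62 to 18.3 in E. The 8 fibroblast markers summed to 7373 to 8335 CPM in AGHMT-labelled libraries, 3872 to 5895 in GHMT, 899 to 1078 in CM and 11287 to 13468 in E. None of these 16 markers was without reads in any group. The 5 endothelial markers summed to 61.1 to 70.6 CPM in AGHMT-labelled libraries, 1.31 to 11.5 in GHMT, 448 to 563 in CM and 8.01 to 9.53 in E, and the 5 macrophage markers to 31.2 to 45.3, 1.31 to 6.19, 75.7 to 116 and 11.2 to 36.5 CPM in the same order, with Cd68 and Adgre1 without a read in GHMT. The 4 smooth muscle markers summed to 376 to 579 CPM in AGHMT-labelled libraries, 308 to 489 in GHMT, 81.3 to 300 in CM and 1084 to 5502 in E. The 4 mast cell markers summed to 310 to 340 CPM in AGHMT-labelled libraries, 65.5 to 162 in GHMT, 6.87 to 10.3 in CM and 0.217 to 0.489 in E. In GHMT, Cma1, Cpa3 and Kit had no read, so the sum there was that of Mcpt4 alone. The 2 haemoglobin genes reached at most 21.03 CPM, in CM. The part of these other cell types in the results was not tested, and in bulk samples fewer cells of a type and less RNA per cell cannot be told apart.

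Together the 9 members of the heavy strand took a far larger share of the reads in sorted cells and cardiomyocytes than in E. They made up 38.0%, 32.8% and 35.9% of gene reads in AGHMT-labelled libraries 1 to 3, 28.6%, 23.2% and 32.0% in GHMT, 51.0%, 55.7% and 36.5% in CM and 3.30%, 5.94% and 6.83% in E. Every library of the other groups stood above every E library, AGHMT-labelled libraries stood above GHMT without overlap, and the range of AGHMT-labelled libraries overlapped that of CM only through CM 3. The means were 35.6 ± 2.61%, 27.9 ± 4.44%, 47.7 ± 10.05% and 5.36 ± 1.83% in the same order (SD, n = 3 each). The 4 groups differed on the log2 scale of the share (exact permutation test on the F statistic, p = 0.000195, adjusted p = 0.000292 over 3 measures). Pairs of groups of 3 libraries cannot go below p = 0.1 in a two-sided exact permutation test. That value was reached in every pair but AGHMT-labelled against CM (exact p = 0.2). mt-Nd6 reads are part of these gene reads. Without them, the heavy-strand share was 39.0%, 33.4% and 36.8% in AGHMT-labelled libraries, 50.3%, 24% and 37.2% in GHMT, 52.1%, 57.1% and 37.2% in CM and 3.31%, 5.95% and 6.85% in E. GHMT libraries then overlapped both AGHMT-labelled and CM libraries, and the mean was 36.4 ± 2.82% in AGHMT-labelled libraries and 37.2 ± 13.1% in GHMT (SD, n = 3 each), so that the order of these 2 means turned. The 4 groups differed in this measure too (exact permutation test, p = 0.00721). The Wilson 95% interval of the share in the shallowest GHMT library, GHMT 3, was 31.9% to 32.1%, which covers counting error only.

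mt-Nd6 followed another order. Its reads were 2.55%, 1.73% and 2.33% of gene reads in AGHMT-labelled libraries, 43.1%, 3.34% and 14.0% in GHMT, 2.09%, 2.32% and 2.09% in CM and 0.108%, 0.173% and 0.234% in E. All 3 GHMT libraries stood above every other library, but they differed widely among themselves, while AGHMT-labelled and CM libraries overlapped. The 4 groups differed (exact permutation test, p = 0.000584, adjusted p = 0.000584). Within GHMT, the library with the highest mt-Nd6 share, GHMT 1, held the most gene reads, 2200815, against 1872558 in GHMT 3 and 2126613 in GHMT 2. It had the fewest reads off the mitochondrial chromosome, 612458, against 991665 in GHMT 3 and 1534409 in GHMT 2. At such similar totals a larger mt-Nd6 share leaves fewer other reads, so this order is not a separate result. The part of depth was not tested.

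**Figure D2:**
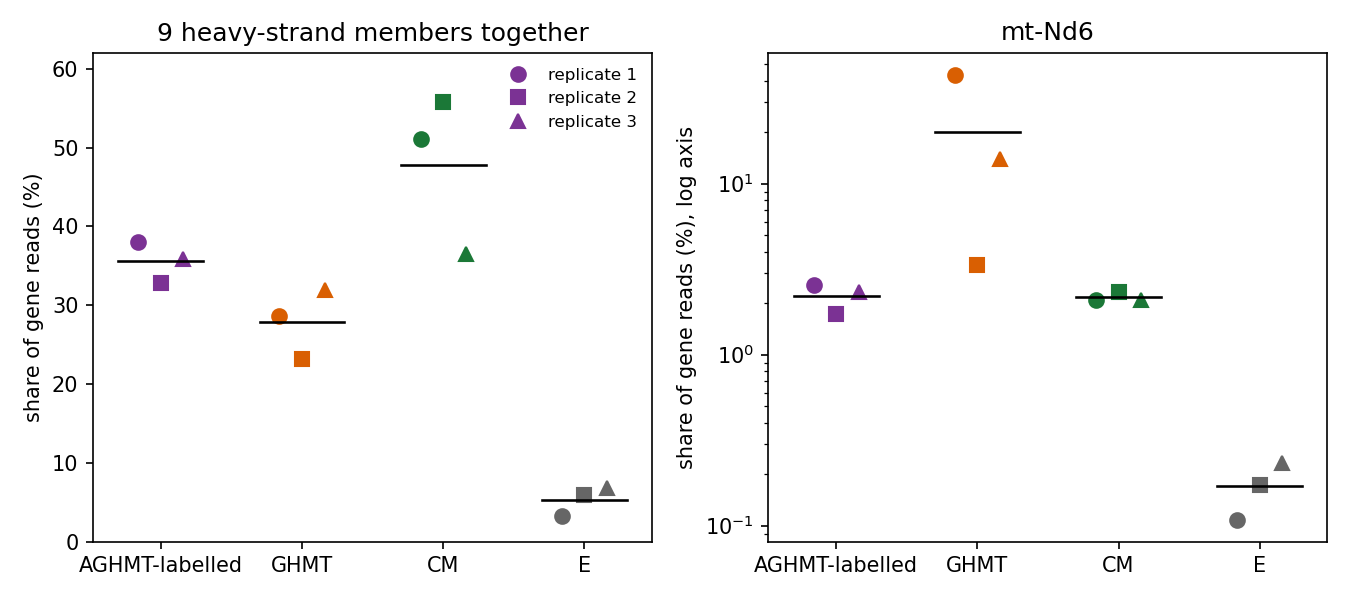
Share of gene reads taken by the 9 heavy-strand members together (left, linear axis) and by mt-Nd6 (right, log axis) in each of the 12 libraries; points are libraries, bars are group means. Heavy-strand shares were 32.8% to 38.0% in AGHMT-labelled libraries, 23.2% to 32.0% in GHMT, 36.5% to 55.7% in CM and 3.30% to 6.83% in E, all with mt-Nd6 reads in the denominator, and the mt-Nd6 share was above 3% in GHMT libraries only.

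Against E, the members rose in all of the other groups, with the exception of mt-Co3 in GHMT. By the quasi-likelihood test of edgeR, adjusted over 15059 genes by Benjamini and Hochberg's method, all 10 members were higher in AGHMT-labelled cells, 9 of 10 in GHMT cells and all 10 in CM. The share of all tested genes called higher was 21.9% in AGHMT-labelled cells, 19.8% in GHMT and 19.5% in CM, the share called lower was 24.6%, 32.9% and 22.5%, and 46.5%, 52.6% and 42% were called in either direction. The median log2 fold change of the members was 3.52, 3.53 and 4.30, beside medians over all genes of -0.16, -1.06 and -0.26, in the same order. For the 7 deeply counted members, every library of the other groups lay above every E library, a separation that 71.6%, 59.5% and 57.2% of all genes also showed in either direction. These comparisons share the E libraries, and the sizes of the fold changes depended on the scaling.

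Among the complex I subunits of the heavy strand, mt-Nd1, part of the membrane arm near the ubiquinone site, made up 6.45%, 5.60% and 6.14% of gene reads in AGHMT-labelled libraries, 2.43%, 3.47% and 4.54% in GHMT, 9.20%, 9.92% and 6.66% in CM and 0.585%, 1.26% and 1.17% in E. On the log2 scale it rose over E by 3.45 (SE 0.41, adjusted p = 1.8e-05, edgeR) in AGHMT-labelled cells, 3.31 (SE 0.40, 2.21e-05) in GHMT and 4.18 (SE 0.42, 1.97e-06) in CM. mt-Nd2, a proton-pumping subunit of the same arm, made up 5.16%, 4.56% and 5.08% in AGHMT-labelled libraries, 6.80%, 3.99% and 5.87% in GHMT, 5.02%, 6.67% and 4.41% in CM and 0.299%, 0.631% and 0.715% in E. Its GHMT libraries overlapped CM, and its log2 fold change over E was 4.02 in AGHMT-labelled cells, 5.10 in GHMT and 4.36 in CM (edgeR adjusted p of 6.96e-05, 1.16e-05 and 1.96e-05). mt-Nd4 and mt-Nd5, the other proton-pumping subunits among the members, are described with the comparisons in which they differ.

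mt-Cytb, the heme-bearing core of complex III, made up 7.70%, 6.74% and 7.28% of gene reads in AGHMT-labelled libraries, 4.63%, 4.05% and 4.71% in GHMT, 13.8%, 17.3% and 9.24% in CM and 0.833%, 1.42% and 1.94% in E. By reads per kilobase it ranked 1 or 2 among the 7 deeply counted members in every CM and E library. It rose over E by 3.22 in AGHMT-labelled cells, 3.35 in GHMT and 4.36 in CM on the log2 scale. mt-Co1, the catalytic subunit of cytochrome c oxidase, made up 10.5%, 8.64% and 10.1% in AGHMT-labelled libraries, 2.26%, 3.97% and 6.07% in GHMT, 10.4%, 10.05% and 6.64% in CM and 0.783%, 1.18% and 1.42% in E. In these shares AGHMT-labelled and CM libraries overlapped, and GHMT lay below both. In CPM, GHMT overlapped both, with 78183 in GHMT 3, 76908 in AGHMT 2 and 58361 in CM 3.

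mt-Nd6, a small membrane subunit of complex I, rose over E by 4.54 (SE 0.90, adjusted p = 0.00128, edgeR) in AGHMT-labelled cells, 8.98 (SE 1.10, 2.32e-05) in GHMT and 4.70 (SE 0.91, 0.000706) in CM on the log2 scale. Without GHMT 1, its value in GHMT was 6.82 (adjusted p = 1.3e-05). The remaining 3 members rest on few reads. mt-Co3, which passed in AGHMT-labelled cells and CM but not in GHMT (log2 fold change 0.21, adjusted p = 0.89), had 34, 36 and 64 reads in AGHMT-labelled libraries, 0, 2 and 0 in GHMT, 100, 77 and 9 in CM and 18, 10 and 18 in E. mt-Co2 had 0 reads of 2200815 in GHMT 1, which allows a share of up to 0.000136% of gene reads, 14 in GHMT 2 and 0 in GHMT 3, and without GHMT 2 its log2 fold change against E turned to -5.25. mt-Atp6 had 38 reads in GHMT 1 but 1 and 2 in GHMT 2 and 3, and its value against CM, called higher as given below, turned to -1.24 without GHMT 1 and did not pass in 10 more of 21 alternative settings.

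**Figure D3:**
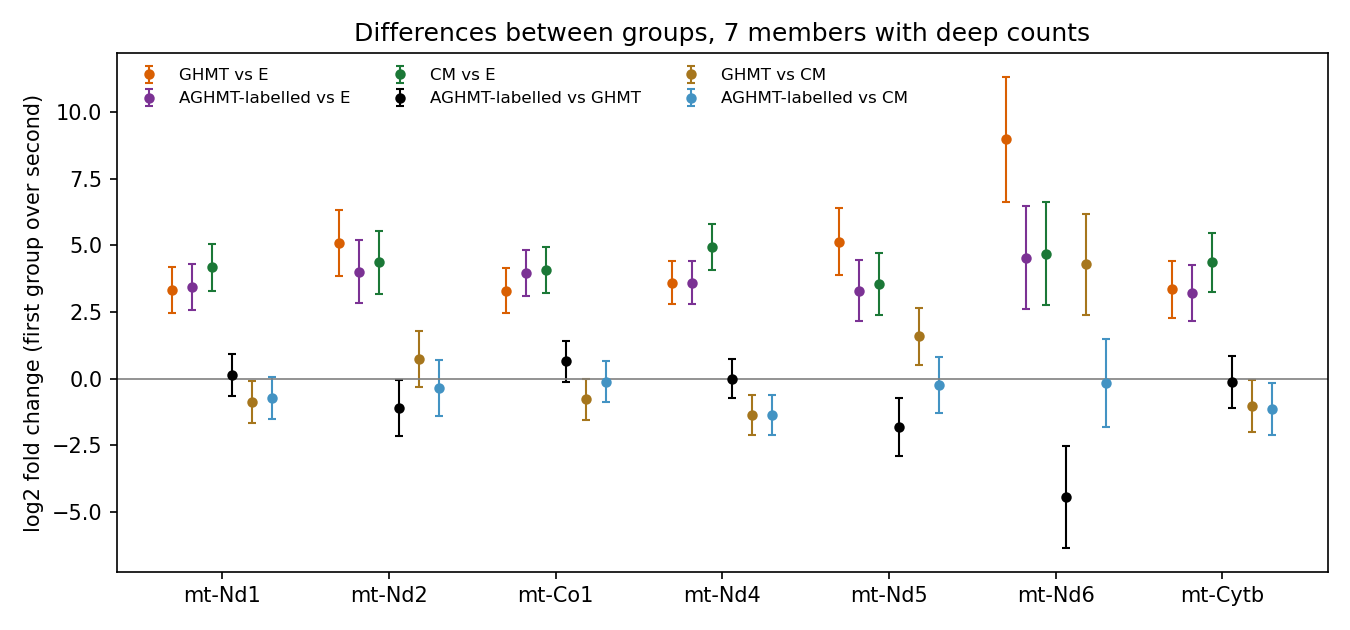
Log2 fold changes (first group over second, y axis) with 95% intervals from edgeR's fit of all 12 libraries, for the 7 members with deep counts (x axis, in order along the chromosome) in 6 comparisons. Values against E lie between 3.22 and 8.98 for every member shown, whereas AGHMT-labelled against GHMT and the comparisons with CM lie between -1.14 and 0.74 for mt-Nd1, mt-Nd2, mt-Co1 and mt-Cytb.

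Against CM, 1 of 10 members passed the test in AGHMT-labelled cells and 5 of 10 in GHMT, counts and directions that depended on the scaling. AGHMT-labelled cells had 0 members higher and 1 lower, mt-Nd4, where 23.7% of all genes were called higher, 24.4% lower and 48.1% in either direction. GHMT cells had 3 higher (mt-Nd5, mt-Nd6 and mt-Atp6) and 2 lower (mt-Nd4 and mt-Co3), where 23.8% of all genes were called higher, 34.7% lower and 58.6% in either direction. mt-Nd4 made up 3.30%, 2.73% and 2.92% of gene reads in AGHMT-labelled libraries, 1.38%, 1.87% and 2.31% in GHMT, 7.66%, 6.20% and 6.09% in CM and 0.267%, 0.509% and 0.555% in E. CM libraries stood above all others without overlap. AGHMT-labelled cells and CM did not overlap in CPM in 2 members, mt-Nd4 and mt-Co2, and in 70.5% of all genes. mt-Nd4 fell by 1.35 (SE 0.35, adjusted p = 0.00645, edgeR) in AGHMT-labelled cells and by 1.34 (SE 0.35, 0.0049) in GHMT on the log2 scale, relative to CM. The call in AGHMT-labelled cells was lost without AGHMT 3 (adjusted p = 0.0635). Of the others, mt-Cytb stood at -1.14 in AGHMT-labelled cells and -1.01 in GHMT relative to CM (edgeR adjusted p = 0.052 and 0.0696), with 95% intervals of -2.12 to -0.16 and -1.98 to -0.03, and mt-Co1 at -0.12 and -0.77, with intervals of -0.88 to 0.65 and -1.54 to 0.00. In GHMT relative to CM, mt-Nd6 rose by 4.29 on the log2 scale (SE 0.89, adjusted p = 0.00106, edgeR), and without GHMT 1 by 2.11 (0.00777), but with limma on the deposited normalised values it stood at 2.47 and did not pass (adjusted p = 0.0582). mt-Nd5 rose by 1.59 (SE 0.51, 0.0152), a call that was lost without GHMT 1 (0.65, adjusted p = 0.218), without AGHMT 3 (adjusted p = 0.104), without E 1 (0.0579), with DESeq2 (0.0636), with the size factors of DESeq2 in edgeR (0.0658), with a normalisation that leaves out mitochondrial genes (0.0775), with only the groups compared (0.0988) and with limma (0.267). The counts of members called against CM differed between tools. With DESeq2, 6 members were lower in AGHMT-labelled cells than in CM, and with the size factors of DESeq2 in edgeR 5 were. In GHMT relative to CM, 1 member was higher and 5 were lower with those size factors and with a normalisation that leaves out mitochondrial genes, 2 were higher and 5 lower with total counts and with DESeq2, and 0 were higher and 6 lower with limma. mt-Nd1, mt-Co1 and mt-Cytb were lower in GHMT in all 5 of these settings. In AGHMT-labelled cells against CM, 71% of the 8840 genes called with DESeq2 and 71.3% of 7723 with its size factors were lower. In the fit reported, 50.6% of 7244 were. In GHMT against CM, 67.1% to 75.8% of the genes called in these 5 settings were lower, against 59.3% in the fit reported.

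Between the sorted groups, AGHMT-labelled cells had 0 members higher and 2 lower than GHMT, mt-Nd5 and mt-Nd6, where 4.58% of all genes were called lower, 13.2% higher and 17.8% in either direction. This split depended on the scaling. With a normalisation that leaves out mitochondrial genes, 2 members were higher, mt-Co1 by 1.30 and mt-Co3 by 3.10 on the log2 scale (adjusted p = 0.022 and 0.0385, edgeR), and 1 was lower, and both total counts and limma gave 1 higher and 1 lower. Of all genes called, 94.8%, 95.4% and 81.8% were higher in these settings in the same order, against 74.3% in the fit reported. The groups did not overlap in mt-Nd5, mt-Nd6 or mt-Co3, as in 45.9% of all genes. The median of all genes was 0.63 and that of the members -0.18. mt-Nd6 fell by 4.44 on the log2 scale in AGHMT-labelled cells (SE 0.90, adjusted p = 0.00544, edgeR), and without GHMT 1 it fell by 2.27 (adjusted p = 0.0206). mt-Nd5, the longest of the members, made up 4.93%, 4.56% and 4.44% of gene reads in AGHMT-labelled libraries, 11.1%, 5.85% and 8.50% in GHMT, 4.94%, 5.56% and 3.43% in CM and 0.537%, 0.954% and 1.04% in E. In these shares the GHMT libraries stood above all others without overlap, and AGHMT-labelled and CM libraries overlapped. In CPM, GHMT overlapped CM, with 64810 in GHMT 2 and 75932 in CM 2. mt-Nd5 fell by 1.82 on the log2 scale in AGHMT-labelled cells relative to GHMT (SE 0.51, adjusted p = 0.0256). Without GHMT 1 the difference was -0.89 and no longer passed (adjusted p = 0.185). The call was also lost without AGHMT 1, 2 or 3 (adjusted p = 0.0655, 0.102 and 0.227), without E 1 (0.0814), with total counts as the scale (0.0856), with a normalisation that leaves out mitochondrial genes (0.101) and with limma (0.059). mt-Nd1, mt-Nd2, mt-Nd4, mt-Co1 and mt-Cytb differed between the sorted groups by 0.13, -1.09, 0.00, 0.65 and -0.13 and did not pass, with 95% intervals that together span -2.13 to 1.42.

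The ratio of mt-Nd6 to the heavy-strand members needs no scaling between libraries. Per kilobase, mt-Nd6 stood at 0.842, 0.664 and 0.815 times the density of the 6 deeply counted heavy-strand members in AGHMT-labelled libraries, 18.9, 1.81 and 5.50 times in GHMT, 0.516, 0.523 and 0.720 times in CM and 0.413, 0.366 and 0.431 times in E. The 3 GHMT libraries alone stood above 1. E libraries stood below all others, and AGHMT-labelled and CM libraries overlapped. With all 9 heavy-strand members and their annotated lengths, the measure set for the test, the ratio was 1.19 ± 0.148 in AGHMT-labelled libraries, 13.5 ± 13.9 in GHMT, 0.901 ± 0.178 in CM and 0.620 ± 0.0513 in E (SD, n = 3 each), and the 4 groups differed on its log2 scale (exact permutation test, p = 0.00013, adjusted p = 0.000292). Over every left-out library this p lay between 0.00013 and 0.0187. The SD of GHMT exceeds its mean because GHMT 1 stood at 29.1, against 2.78 and 8.46 in the other two.

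Ranked by reads per kilobase among the 7 deeply counted members, mt-Nd6 was 6 in all AGHMT-labelled libraries, 1 in all 3 GHMT libraries, 6 in all CM libraries and 7 in all E libraries. As a share of the reads of all 10 members, mt-Nd6 was 5.79 ± 0.682% in AGHMT-labelled libraries, 60.1%, 12.6% and 30.4% in the 3 GHMT libraries, 4.45 ± 0.837% in CM and 3.11 ± 0.250% in E (SD, n = 3 each). The 8 transfer RNA genes on the strand of mt-Nd6 gave 5.87 to 8.34 reads per 100 mt-Nd6 reads in AGHMT-labelled libraries, 0.165, 3.11 and 0.356 in GHMT, 4.19 to 8.76 in CM and 4.84 to 9.54 in E. The GHMT libraries lay below all others, so the reads of these transfer RNA genes did not stand in the same proportion to those of mt-Nd6 as elsewhere. Of these genes only mt-Te adjoins mt-Nd6. The mitochondrial ribosomal RNAs, which lie on the heavy strand, took 1.91% to 2.01% of gene reads in AGHMT-labelled libraries, 0.393%, 1.202% and 1.002% in GHMT, 1.22% to 1.81% in CM and 0.218% to 0.282% in E.

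**Figure D4:**
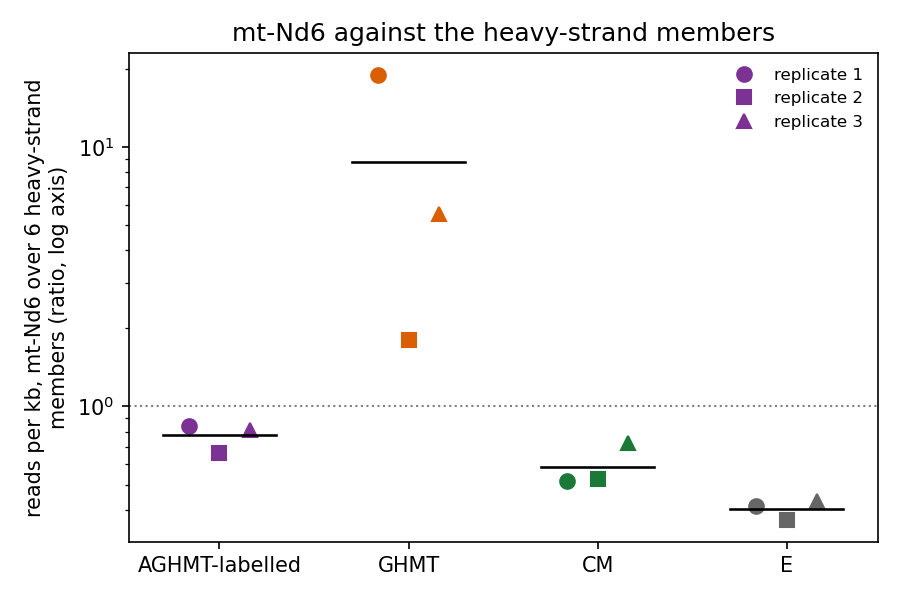
Density of mt-Nd6 (reads per kilobase) over that of the 6 deeply counted heavy-strand members, outside nuclear copies (y axis, ratio on a log scale), in each library; bars are group means and the dotted line marks equal density. GHMT libraries lay at 18.9, 1.81 and 5.50, and all other libraries between 0.366 and 0.842.

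The heavy-strand members also differed between groups in their proportions to each other. Each member's reads per kilobase relative to those of the 9 were compared over the 4 groups. These values share a sum over the same 9 members, so a larger part for any member lowers the others. The results of single members are therefore not separate. 7 of the 9 passed at an adjusted p below 0.05 (exact permutation test, Benjamini-Hochberg over the 9), all but mt-Co2 (adjusted p = 0.545) and mt-Atp6 (0.807). Of the 7, mt-Co3 (0.00584) rests on 0 to 100 reads a library. Outside nuclear copies, with only the 6 deeply counted members, a measure chosen after the data were seen, all 6 passed.

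mt-Nd5 had the smallest p of the 9. Of the summed reads per kilobase of the 6, it held 7.19%, 7.76% and 6.87% in AGHMT-labelled libraries, 25.3%, 14.8% and 15.8% in GHMT, 4.99%, 5.36% and 4.75% in CM and 9.23%, 9.01% and 8.59% in E (adjusted p = 0.000584 in the test over 9). No 2 groups overlapped. The p before adjustment, 6.49e-05, is the smallest that the 369600 arrangements of the libraries can give. mt-Nd2 held 13.2%, 13.6% and 13.8% in AGHMT-labelled libraries, 27.2%, 17.7% and 19.2% in GHMT, 8.91%, 11.3% and 10.8% in CM and 9.04%, 10.5% and 10.4% in E (adjusted p = 0.000779 in the test over 9). Here AGHMT-labelled libraries stood between GHMT and the overlapping CM and E.

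mt-Nd4 held 17.5%, 16.9% and 16.4% in AGHMT-labelled libraries, 11.4%, 17.2% and 15.6% in GHMT, 28.1%, 21.8% and 30.7% in CM and 16.7%, 17.5% and 16.7% in E, so CM stood above the 3 fibroblast-derived groups, which overlapped in these shares. The adjusted p-values of this paragraph come from the permutation test over the 9 with annotated lengths, not from these shares. In the measure tested, mt-Nd4 (adjusted p = 0.00175) was lower in GHMT than in AGHMT-labelled and E libraries without overlap. mt-Co1 held 26.3%, 25.2% and 26.8% in AGHMT-labelled libraries, 8.83%, 17.2% and 19.4% in GHMT, 18.1%, 16.7% and 15.8% in CM and 23.1%, 19.1% and 20.2% in E (adjusted p = 0.00281). The AGHMT-labelled libraries stood above all others, and mt-Co1 ranked 1 of 7 by density in all 3 of them. mt-Cytb held 18.1 ± 0.198% in AGHMT-labelled libraries, 15.7 ± 1.53% in GHMT, 23.1 ± 3.22% in CM and 23.3 ± 2.18% in E (adjusted p = 0.000779), and mt-Nd1 18.1 ± 0.131%, 14.4 ± 3.41%, 17.9 ± 0.354% and 20.1 ± 2.22% in the same order (adjusted p = 0.00584; SD, n = 3 each). In the measure tested, mt-Nd1 was higher in CM than in AGHMT-labelled libraries without overlap. There, CM and E overlapped in mt-Cytb, with the higher mean in CM.

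mt-Nd5 and mt-Cytb lie on either side of mt-Nd6 along the chromosome. The density of mt-Cytb over that of mt-Nd5 was 2.36 to 2.62 in AGHMT-labelled libraries, 0.665, 1.11 and 0.883 in GHMT, 4.30 to 4.97 in CM and 2.37 to 2.98 in E. AGHMT-labelled and E libraries overlapped, CM stood above them and GHMT below. GHMT 1 departed furthest from its group in mt-Nd2, mt-Co1 and mt-Nd5, while GHMT 2 and 3 still lay outside the ranges of the other 3 groups for mt-Nd2 and mt-Nd5. The SD of these shares over replicates reached 0.807 percentage points in AGHMT-labelled libraries, 5.78 in GHMT, 4.59 in CM and 2.22 in E.

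**Figure D5:**
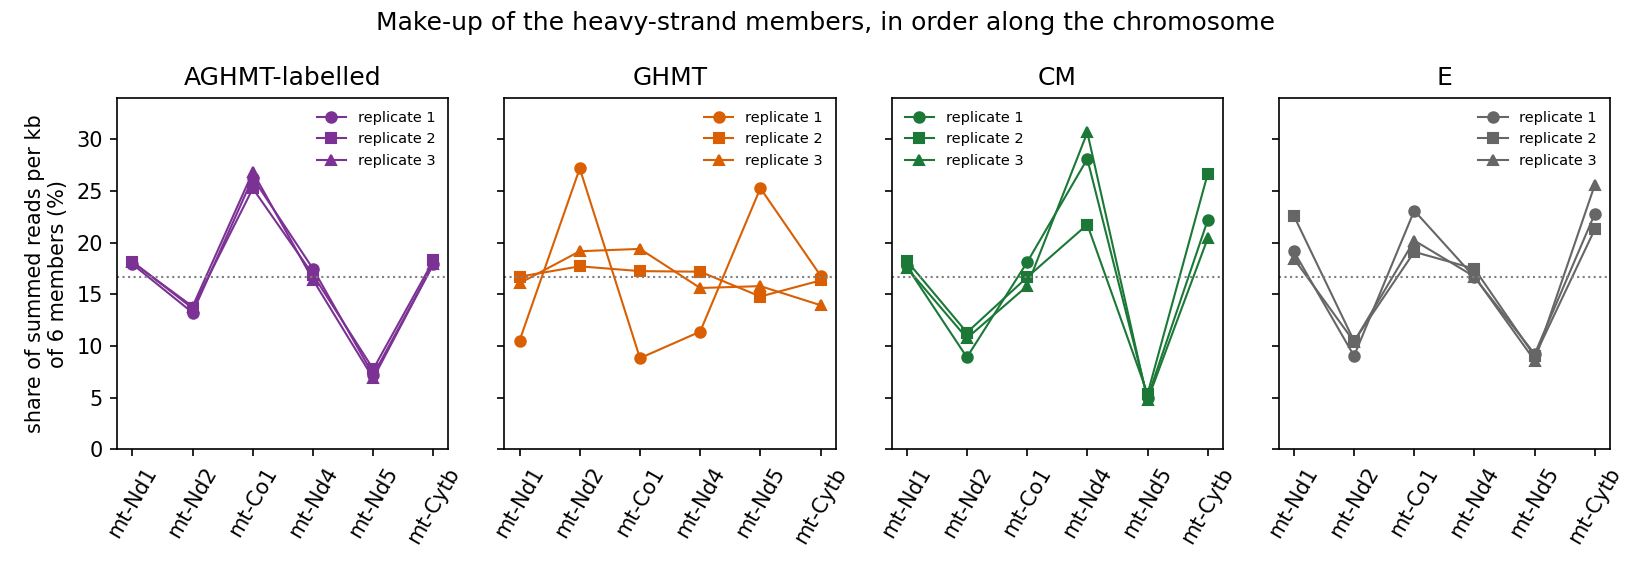
Share of the summed reads per kilobase of 6 heavy-strand members held by each (y axis, %), with members in order along the chromosome (x axis), 1 line per library and 1 panel per group; the dotted line marks equal shares. mt-Nd5 was lowest in every AGHMT-labelled and CM library (4.75% to 7.76%) but held 14.8% to 25.3% in GHMT, and mt-Nd4 reached 21.8% to 30.7% only in CM.

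Most nuclear genes of the same complexes rose in CM against E, and most did not pass in that direction in the sorted cells. Of 73 tested nuclear subunits of complexes I, III, IV and V, 16 were higher and 12 lower in AGHMT-labelled cells than in E, 5 higher and 32 lower in GHMT and 67 higher and 0 lower in CM (edgeR, adjusted over all genes). Over all genes, 21.9%, 19.8% and 19.5% were called higher and 24.6%, 32.9% and 22.5% lower, in the same order. The 16 of 73 in AGHMT-labelled cells are near the share called higher there. The median log2 fold changes of the subunits were -0.08, -2.11 and 3.64, beside medians of -0.16, -1.06 and -0.26 over all genes. Relative to CM, 0 subunits were higher in either sorted group, and 70 were lower in AGHMT-labelled cells and 72 in GHMT, with medians of -3.51 and -5.83 against -0.05 and -0.89 over all genes. Of all genes, 24.4% and 34.7% were called lower and 23.7% and 23.8% higher in these 2 comparisons. The catalytic subunit gene Atp5a1 of the ATP synthase stood at 489 ± 55.6 CPM in AGHMT-labelled cells, 104 ± 88.3 in GHMT, 3368 ± 145 in CM and 270 ± 59.0 in E. AGHMT-labelled cells had 29 subunits higher and 0 lower than GHMT, among them Atp5a1 by 2.21 on the log2 scale (adjusted p = 0.00602, edgeR). Between these groups 13.2% of all genes were called higher and 4.58% lower.

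Of 16 tested genes for replication and transcription of mitochondrial DNA, 1 was higher and 4 lower in AGHMT-labelled cells than in E, 1 higher and 8 lower in GHMT and 1 higher and 0 lower in CM, where 21.9%, 19.8% and 19.5% of all genes were called higher and 24.6%, 32.9% and 22.5% lower in the same order. The medians of the list were 0.14, -2.62 and 0.88 on the log2 scale, beside -0.16, -1.06 and -0.26 over all genes. The higher gene in both sorted groups was Mterf3, a regulator of mitochondrial transcription, at 40.7 ± 10.4 CPM in AGHMT-labelled cells, 84.2 ± 24.7 in GHMT, 29.1 ± 5.59 in CM and 16.2 ± 2.39 in E. In CM it was Mterf2, of the same family, at 35.5 ± 17.1 CPM against 7.74 ± 1.22 in E (adjusted p = 0.0123, edgeR). The largest fall in both sorted groups was that of Top1mt, a gene with few reads. It stood at 0.132 ± 0.0899 CPM in AGHMT-labelled cells and 0 in GHMT, against 2.85 ± 2.38 in E (adjusted p = 0.00255 and 0.0124, edgeR). Of 18 tested genes for processing and stability of mitochondrial RNA (19 listed), 2 were higher and 3 lower in AGHMT-labelled cells than in E, 3 higher and 10 lower in GHMT and 7 higher and 0 lower in CM, with medians of -0.68, -2.12 and 0.91. Pnpt1, which encodes a ribonuclease known from human cells to degrade mitochondrial RNA, stood at 85.8 ± 3.53 CPM in AGHMT-labelled cells, 120 ± 11.4 in GHMT, 41.1 ± 24.7 in CM and 37.4 ± 17.6 in E, higher than E in both sorted groups (adjusted p = 0.0307 and 0.00513, edgeR). Grsf1, known from human cells to bind G-rich mitochondrial RNA such as that of mt-Nd6, stood at 130 ± 5.97, 86.2 ± 14.0, 214 ± 66.9 and 65.2 ± 9.90 CPM in the same order and passed against E in AGHMT-labelled cells and CM (adjusted p = 0.0135 and 0.000288) but not in GHMT (0.268). Elac2 fell most in both sorted groups, at 1.17 ± 0.160 CPM in AGHMT-labelled cells and 0.229 ± 0.397 in GHMT, against 8.14 ± 4.76 in E (adjusted p = 0.00483 and 0.00188, edgeR). Taco1 rose most in CM, at 52.5 ± 9.17 CPM against 8.11 ± 0.633 in E (adjusted p = 0.000236, edgeR). In GHMT Taco1 was lower than in E (log2 fold change -5.02, adjusted p = 0.00028, edgeR).

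Of 8 regulators of nuclear mitochondrial genes, 5 were higher and 0 lower in AGHMT-labelled cells than in E, 2 and 0 in GHMT and 6 and 0 in CM, with medians of 2.99, -0.90 and 5.53 on the log2 scale. The 2 of 8 in GHMT are near the 19.8% of all genes called higher there, beside 21.9% in AGHMT-labelled cells and 19.5% in CM. Ppargc1a, the coactivator of mitochondrial biogenesis, stood at 80.3 ± 12.7 CPM in AGHMT-labelled cells, 25.5 ± 8.03 in GHMT, 159 ± 53.8 in CM and 0.204 ± 0.0707 in E. It rose over E by 8.62, 6.99 and 9.61 on the log2 scale in AGHMT-labelled cells, GHMT and CM (edgeR adjusted p of 1.6e-08, 9.54e-08 and 4.38e-09). Gabpa, a subunit of the nuclear respiratory factor GABP, stood at 115 ± 12.2 CPM in AGHMT-labelled cells, 257 ± 37.2 in GHMT, 60.7 ± 24.1 in CM and 91.3 ± 28.5 in E, and passed against E in GHMT only (adjusted p = 0.00227, edgeR).

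Among 7087 genes off the mitochondrial chromosome with a mean of at least 10 CPM, those whose log2 CPM over the 12 libraries were most like the mean of the heavy-strand members were Nebl, Retreg1, Lpl, Tbc1d4 and Strip2, with Pearson's r of 0.99, 0.99, 0.98, 0.98 and 0.98. Those most like mt-Nd6 were Gca, Enpp4, Phactr2, Gabarapl2 and Mat2b, with r of 0.97, 0.97, 0.96, 0.96 and 0.96. These are descriptions over 12 libraries that fall into 4 groups and share their scaling factors with the members.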

How the data were processed

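RNA was extracted with TRIzol and made into libraries with a stranded TruSeq kit, per the labels' protocols. The tools and build named in the submitters' processing notes are Bowtie2 2.0.6, HTSeq, DESeq and mm10. Neither a strand setting nor an annotation release is given there. The authors deposited a table of counts per Ensembl gene for each of 12 libraries, with reads that match several places left out, and a table of normalized signal, which the authors made by dividing counts by 1 size factor per library. Dividing each of its columns by the smallest value gave whole numbers (tolerance 0.001) for 100% of 26474 rows, with totals equal to the count files. Of 43629 identifiers, 42462 matched GENCODE M21 (GRCm38).

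Genes passing filterByExpr (minimum count 10, minimum total 15; 15059 genes) were fitted in 1 robust quasi-likelihood model of all 12 libraries (edgeR 4.0.16, R 4.3.3) with TMM scaling, where the factor of GHMT 1 was 0.347, and adjusted by Benjamini-Hochberg with a threshold of 0.05. CPM are on the TMM scale, with a prior count of 2 for log2 values. The test was checked on simulated counts. Shares and ratios within a library were compared by exact permutation of libraries over groups. To each member's count, 0.5 reads were added in the comparison of proportions among heavy-strand members only. Nuclear copies were found with BLAST+ 2.17.0 among annotated transcripts (at least 100 bases, at least 99% identity). Alternatives were other scalings, filters, tools (DESeq2 1.42.0, and limma 3.58.1 on log2 of normalized values plus 1), a replicate block and each library left out. Reads in no gene were 8.45% to 20.2% of uniquely aligned reads. No batch is given in the labels. Intervals of shares are Wilson 95% intervals. Those of log2 fold changes are 95% intervals from the SE and the t distribution of the fit. Counts of 0 were left as 0 in the fits. The upper limit given for the share of a gene with no read is that of 3 counts in the library.

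Members and lists were chosen with earlier results of these data known. Beyond the members, named genes were drawn from the most abundant member of each list and the passing ones with the largest change in each direction, of which only some are given, and the 5 genes most like the heavy-strand members and mt-Nd6.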

Additional observations from a re-analysis of the deposited data

Results flagged for a closer look

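Reads that matched several places of the genome, which enter no gene's count, stood higher in all groups with a large mitochondrial share. Per gene read, the files recorded a median of 1.65 such alignments in AGHMT-labelled libraries, 1.55 in GHMT and 2.57 in CM, against 1.02 to 1.12 in the E libraries. Every library of the 3 groups stood above every E library. Which genes these alignments belong to is not recorded in the count files, and their relation to mt-Co2, mt-Co3 and mt-Atp6 was not tested.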

How the results depend on the processing

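For the 7 deeply counted members against E, all 154 values under alternative settings in each comparison kept their direction and call, with an adjusted p of at most 0.0134 in AGHMT-labelled cells, 0.00185 in GHMT and 0.00518 in CM. The sizes moved, over 2.37 to 4.86 in AGHMT-labelled cells, 1.68 to 9.53 in GHMT and 2.46 to 5.38 in CM on the log2 scale. With total counts, mt-Nd1, mt-Cytb, mt-Co1 and mt-Nd6 stood at 1.79, 1.68, 1.86 and 6.87 in GHMT. In the fit reported they stood at 3.31, 3.35, 3.31 and 8.98. The number of members called in AGHMT-labelled cells against CM, 1, came to 5 under the size factors of DESeq2, 2 with total counts, 3 without a filter, 2 with a filter of 1 CPM in 3 libraries, 3 with only the groups compared, 6 with DESeq2, 3 with limma and 0 to 3 with each library left out. AGHMT-labelled against GHMT, 2 in the fit reported, gave 5 without a filter and 1 to 4 with each library left out, and GHMT against CM, 5, gave 9 without a filter and 4 to 7. Against E, leaving out each library gave 8 to 10 in AGHMT-labelled cells, 8 to 9 in GHMT and 10 in CM. With each library left out, the permutation p lay between 6.49e-05 and 0.00136 for the heavy-strand share, 0.000584 and 0.0013 for mt-Nd6 and 0.00013 and 0.0187 for their ratio, and 7 to 8 members differed in composition. It was 0.00721 for the heavy-strand share without mt-Nd6 reads in the denominator, and within the replicate block it was 0.00174, 0.00694 and 0.00174 for the 3 measures in the same order. Among the deeply counted members, 8 values that had not passed turned direction in at least 1 setting, and 0 of these passed there. For example, mt-Cytb in AGHMT-labelled cells against GHMT was 0.70 with total counts, against -0.13 in the fit reported, and mt-Nd2 in GHMT against CM -0.09 without GHMT 1, against 0.74. Called values turned in members with few reads. mt-Atp6 in GHMT against CM was -1.24 without GHMT 1 and lay between -1.24 and 3.54 with each library left out. mt-Co2 in GHMT against E was -5.25 without GHMT 2 (range -5.25 to 4.04), and in AGHMT-labelled cells against GHMT, where it had not passed (-0.22), it was 8.50. The cause was not tested.

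Other scalings moved the median of all genes from -2.38 to -1.01 in GHMT against E, -0.99 to -0.05 in AGHMT-labelled cells against E, -1.25 to 0.15 in CM against E, 0.31 to 1.22 between the sorted groups, -2.01 to -0.89 in GHMT against CM and -0.79 to 0.13 in AGHMT-labelled cells against CM. The share of calls that were higher moved with it, over 12% to 37.6%, 23.3% to 51.1%, 22.7% to 60.2%, 57.7% to 95.4%, 24.2% to 40.7% and 28.7% to 56.1% in the same order. With the replicate number as a block, AGHMT-labelled against GHMT gave 1 member called (mt-Nd5 adjusted p = 0.0573). Same-numbered libraries did not deviate together, with r of -0.719 to 0.13 and 2 of 18 pairs over 0.1. With 3 libraries a group this cannot tell whether the numbers pair the samples, and the labels do not say that they do. The shallow GHMT libraries limit what can be said of mt-Co2, mt-Co3 and mt-Atp6, and the ratio outside nuclear copies was chosen after seeing the data.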
